A study of Rattus norvegicus with 320 samples.

Results

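The adult lung of Fischer 344 rats, an inbred laboratory strain, was represented by 8 miRNA-seq libraries from rats 21 weeks old, 4 female and 4 male, out of 320 libraries in the whole dataset. The members were chosen by organ and age alone. Every miRNA of the deposited table was compared between these 8 lung libraries and the adrenal gland, brain, heart, kidney, liver, skeletal muscle, spleen and thymus of rats of the same age (8 libraries each, 4 per sex, 64 in all). The rats were untreated, pair-housed animals of 1 breeding colony, and the same comparison was also made at 2, 6 and 104 weeks. Per the study each rat gave all the organs compared, so the lung and other organ libraries come from the same 8 rats, but the labels tie no library to a rat and the fit took libraries as independent. Each library was made from total RNA of ground organ tissue, in which fewer cells of a type and less RNA per cell cannot be told apart. Testis and uterus, each present in 1 sex, were kept out of the main comparison and are described separately.

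miRNAs are short RNAs that guide Argonaute proteins to messenger RNAs, mainly by pairing of bases 2 to 8, the seed, and thereby lower the output of the targets. The lung joins several tissues in which particular miRNAs are well known. Multiciliated cells of the airways carry the miR-34b/c and miR-449 families, epithelial cells carry the miR-200 family, which represses the ZEB transcription factors, endothelial cells carry miR-126, and smooth muscle carries miR-143 and miR-145.

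The mature sequences below belong to the miRNAs that were at least 2-fold higher in adult lung than in each of the 8 organs, together with the other measured miRNAs that share their seeds. They are written 5′ to 3′ as in the deposited table, with the seed (bases 2 to 8) in capitals. Of the deposited names, 551 matched an entry in RefSeq (build GRCr8), and all 551 had the same sequence there. The first group shares 1 seed across the 5p arms of miR-34 and miR-449.
miR-34c-5p: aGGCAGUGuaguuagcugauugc
miR-34b-5p: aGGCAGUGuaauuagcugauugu
miR-34a-5p: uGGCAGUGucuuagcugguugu
miR-449a-5p: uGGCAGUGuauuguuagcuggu
miR-449c-5p: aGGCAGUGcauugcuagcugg
The 3p arms of miR-34b and miR-34c share another seed.
miR-34b-3p: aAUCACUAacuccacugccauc
miR-34c-3p: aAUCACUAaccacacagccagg
The miR-200 family falls into a pair of seed groups that differ at 1 of the 7 seed positions, since miR-200c-3p and miR-141-3p have 6 of 7 in common.
miR-200c-3p: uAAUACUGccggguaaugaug
miR-200b-3p: uAAUACUGccugguaaugaugac
miR-429: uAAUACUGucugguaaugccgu
miR-141-3p: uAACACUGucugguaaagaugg
miR-200a-3p: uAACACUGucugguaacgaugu
The remaining miRNAs of the set are these, with miR-146a-5p shown beside miR-146b-5p because both have 1 seed.
miR-141-5p: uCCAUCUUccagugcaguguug
miR-146b-5p: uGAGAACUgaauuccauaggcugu
miR-146a-5p: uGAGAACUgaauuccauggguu
miR-497-3p: cCAAACCAcacugugguguuaga

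Several of these sequences come from hairpins that lie side by side. In RefSeq's GRCr8 annotation Mir34c (chr8:60306091-60306167, minus strand, within the span of Hoatz) and Mir34b (chr8:60306609-60306692, minus strand) are 441 bases apart. Mir449c (chr2:46402375-46402473, plus strand) and Mir449a (chr2:46403910-46404000, plus strand) are 1436 bases apart within the span of LOC134485839. Mir141 (chr4:159209525-159209618, minus strand) and Mir200c (chr4:159209965-159210033, minus strand) are 346 bases apart, whereas Mir429, Mir200a and Mir200b lie on chromosome 5 within the span of Ttll10. Neighbouring hairpins and seed-sharing miRNAs are therefore not independent observations. The pair miR-34b-5p and miR-34c-5p matched at 21 of 23 positions and miR-449a-5p and miR-449c-5p at 18 of 21, so reads with mismatches may have been divided between them.

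The adult lung libraries held 3150122 to 6348068 counts, against 614557 to 6348068 over all 72 libraries. TMM normalization factors were 1.01 to 1.19 in lung and 1.77 to 2.63 in brain. The fitted log2 difference of lung over brain therefore lies above the log2 ratio of CPM (counts scaled to 1 common library total). An excess in lung is larger than by CPM, and an excess in brain is smaller. Across all miRNAs, Pearson's r between adult lung libraries was at least 0.972. Male replicate 3 stood apart in miRNAs of liver and striated muscle. It held 2885 CPM of the hepatocyte miRNA miR-122-5p against 2.61 to 5.43 CPM in the other 7 libraries, and 16301 CPM of the muscle miRNA miR-133a-3p against 1911 to 5885 CPM. The results on liver miRNAs are given with and without it.

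The first question was which miRNAs set adult lung apart from the average of the other organs. In adult lung, 132 miRNAs were higher (21.4% of those tested) and 111 lower (18% of those tested) than the mean of the 8 organ levels on the log scale, with an adjusted p under 0.05 and a change of at least 2-fold (edgeR quasi-likelihood test, Benjamini-Hochberg adjusted), and 373 were not called. The median log2 fold change over all miRNAs was -0.15, and all changes below are relative to the TMM scale. DESeq2, which differs in its test as well as its scaling, moved that median to -0.53 and the split to 100 higher and 208 lower. Scaling by library size alone, within edgeR, moved the median to -0.04 with 141 higher and 99 lower. The airway, epithelial, endothelial and smooth muscle lists described below all had median log2 fold changes above 1. So did the lists of striated muscle (1.91), red cells (1.59), miR-203 and miR-205 (1.92) and the miR-183 cluster (1.33). A median above 1 is therefore no check of the organ label. With organs at or under 3 counts per library set to 3 counts, these medians were 1.79, 1.53, 0.84 and 1.27 in the same order. For counts at a moderate level, 369 miRNAs with a mean of at least 10 CPM in lung or in the mean of the organ means are called the 10-CPM set.

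The 6 miRNAs of the miR-34b/c and miR-449 hairpins set adult lung apart most. They were the only ones at least 4-fold higher in lung than in each of the 8 organs (0.974% of those tested). All 8 lung libraries lay above all 64 other libraries in 9 miRNAs (1.46% of those tested), and these 6 were among them. These families act in the formation of motile cilia, where they repress targets such as Cp110. A further 5 miRNAs passed at 2-fold, 11 in all (1.79%). By DESeq2, 7 passed at 2-fold, the same 6 and miR-200c-3p. With library size as the only scaling 9 passed at 2-fold, with miR-126a-3p added and miR-146b-5p, miR-141-5p and miR-497-3p lost, and miR-34c-5p missed 4-fold.

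The most abundant of them, miR-34c-5p, ranged from 2748 to 5036 CPM in lung with a median of 4363 CPM. The other 64 libraries ranged from 13.6 to 1358 CPM, with the highest organ mean in brain (1137 ± 154 CPM, SD, n = 8). The log2 fold change over the mean of the organs was 4.71 ± 0.13 (SE) with an edgeR adjusted p of 1.01e-45, and brain was the nearest organ at 2.83 ± 0.24. The lung library with the lowest value, male replicate 3, still lay above the highest brain library.

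miR-34b-5p, from the neighbouring hairpin, ran from 196 to 387 CPM in lung with a median of 241 CPM, and no other library passed 66.5 CPM. Its log2 fold change was 5.09 ± 0.13, and again brain was nearest at 3.31 ± 0.24. The 3p arms behaved likewise. In lung miR-34b-3p lay between 79.7 and 180 CPM (median 139.8 CPM) and miR-34c-3p between 80 and 147 CPM (median 112 CPM). Their highest values elsewhere were 31.5 and 18.6 CPM, both in brain.

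For the miR-449 hairpins the nearest organ was thymus rather than brain. miR-449a-5p ranged from 168 to 307 CPM in lung with a median of 263 CPM. Thymus held 34.9 ± 7.74 CPM (SD, n = 8), and the highest single library outside lung, at 55.9 CPM, was from brain. The log2 fold change was 5.10 ± 0.20 over the mean and 2.79 ± 0.36 over thymus. miR-449c-5p was scarcer, at 20.6 to 42.1 CPM in lung with a median of 32.5 CPM, and 5 of the 8 organs were at or under a floor of 3 counts per library. Its fitted log2 fold change of 6.17 fell to 4.43 when those organs were set to the floor. miR-34a-5p has the same seed but a hairpin of its own, and p53 is known to induce it. Lung held 317 to 632 CPM of miR-34a-5p with a median of 417 CPM, and the 8 organs 13.4 to 686 CPM. The groups overlapped, with a log2 fold change of 1.70 ± 0.11 over the mean of the organs and a higher mean in brain (570 ± 80.8 CPM).

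**Figure D1:**
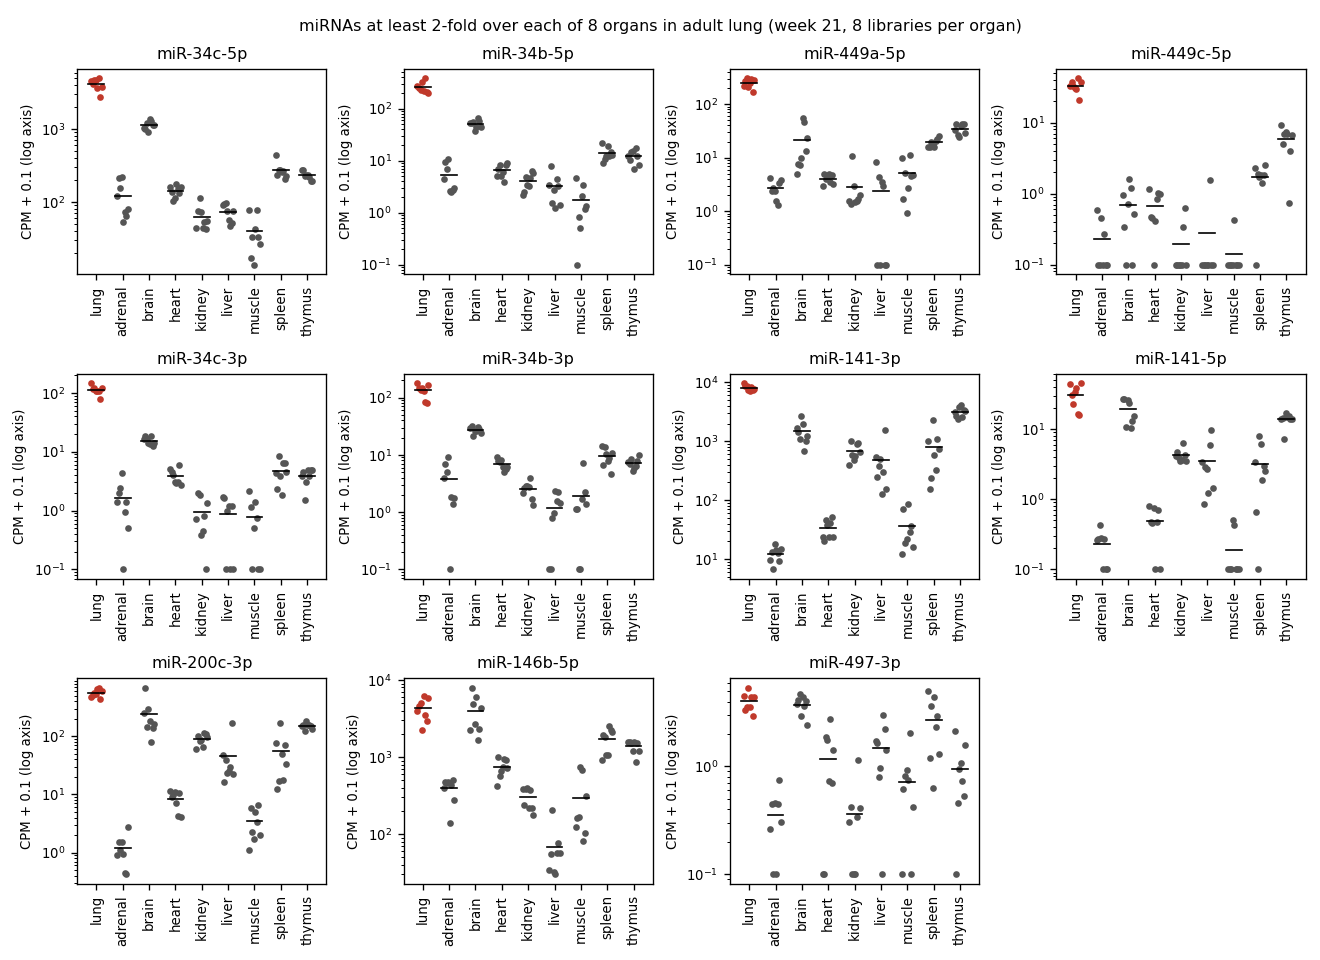
CPM (plus 0.1, log axis) of the 11 miRNAs at least 2-fold higher in adult lung than in each of 8 organs. Each point is 1 library (8 per organ), lung points are red and horizontal bars are organ means. For the 6 miRNAs of miR-34b/c and miR-449 every lung point lies above every other point, while miR-146b-5p and miR-497-3p overlap with brain.

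The miR-200 family was higher in adult lung as a whole, although lung was not the highest organ for every member. All 9 measured arms of miR-200a, miR-200b, miR-200c, miR-141 and miR-429 were higher, against 21.4% of all miRNAs tested. Their median log2 fold change was 3.54, against -0.15 over all miRNAs. In 4 of the 9 arms some organ was at the floor, and the family median was 3.16 with such organs set to the floor. The scarcest arm, miR-200c-5p, averaged 1.04 CPM in lung with 7 organs at the floor, and its log2 fold change of 2.80 became -0.20. The 3p arms of miR-141 and miR-200c, from the chromosome 4 hairpins, were higher than in each organ. Those of the chromosome 5 hairpins were matched or exceeded by brain.

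miR-141-3p was the most abundant of the family in lung, at 7131 to 9749 CPM with a median of 8000 CPM. All 64 other libraries were lower, from 6.63 to 4049 CPM, with thymus at 3160 ± 599 CPM (SD, n = 8). Its log2 fold change was 4.86 ± 0.20 over the mean and 1.296 ± 0.37 over thymus (edgeR adjusted p = 0.00166). miR-200c-3p ranged from 441 to 688 CPM in lung with a median of 547 CPM. Of the other 64 libraries, 1 brain library at 673 CPM lay within that range. The log2 fold change of miR-200c-3p was 4.27 ± 0.20 over the mean and 1.82 ± 0.35 over thymus. miR-141-5p, the scarcer arm, was at 15.6 to 45.3 CPM in lung, overlapped with brain, and had a log2 fold change of 3.98 that became 3.16 with 3 organs set to the floor.

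In lung, miR-429 was at 1611 to 3325 CPM with a median of 2229 CPM, but brain averaged 6011 CPM with a wide spread (SD 2645, n = 8). miR-200b-3p was at 1100 to 4472 CPM in lung and miR-200a-3p at 934 to 1837 CPM. Brain exceeded lung in the mean CPM of both, at 4293 and 3782 CPM. The fitted differences between lung and brain, -0.18 for miR-200b-3p and -0.56 for miR-200a-3p, were within error (edgeR adjusted p = 0.656 and 0.119). The brain TMM factors make these differences smaller than the ratios of CPM. Summed over the 9 arms, lung held 12434 to 16816 CPM and averaged 14224 CPM, second to brain at 15901 CPM.

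Other epithelial miRNAs were higher in adult lung than in the average organ but peaked elsewhere. miR-205, which marks basal and stratified epithelium, was at 309 to 584 CPM in lung with a median of 423 CPM. It was lower in every other organ except thymus, where it averaged 1772 ± 286.4 CPM (SD, n = 8), and the log2 fold change of lung over thymus was -2.06 ± 0.37. Of the 4 measured arms of miR-203 and miR-205, 3 were higher and none lower, against 21.4% and 18% of all miRNAs tested. Among the higher arms, miR-203a-5p averaged 0.93 CPM in lung with 6 organs at the floor. Its log2 fold change of 1.96 became -0.20 with those organs set to the floor. miR-375-3p, known for its role in pancreatic islets and other endocrine cells, was at 3108 to 4166 CPM in lung. Adrenal gland averaged 4366 ± 537 CPM, and the groups overlapped. Lung exceeded the mean of the organs by 3.78 ± 0.28 on the log2 scale. Among the 5 measured arms of miR-7 and miR-375, miR-375-3p was higher and miR-7a-5p lower (-1.62 ± 0.25), near the shares among all miRNAs tested.

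The miR-183, miR-96 and miR-182 hairpins, known for sensory cells, gave 4 of 4 arms higher with a median log2 fold change of 1.33. Their summed level was 5188 ± 895 CPM in lung and 53373 CPM in brain. Among all miRNAs tested 21.4% were higher. The calls depend on averaging logarithms: against the arithmetic mean of the organ CPMs, miR-182, miR-183-5p and miR-96-5p were lower in lung (log2 ratios -0.74, -0.96 and -1.09). DESeq2 called 2 of the 4 arms. miR-183-3p had 3 organs at the floor, and its log2 fold change of 1.25 became 0.18 with those set to the floor.

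Lung tissue is rich in vessels, and both arms of miR-126a, the miRNA of the endothelial gene Egfl7, were higher in lung. miR-126a-3p ranged from 13993 to 26291 CPM with a median of 18046 CPM, and all 64 other libraries were lower, the highest at 11409 CPM. Its log2 fold change was 2.33 ± 0.11 over the mean, and 0.90 ± 0.17 over heart, the nearest organ (edgeR adjusted p = 1.09e-05). miR-126a-5p was at 9299 to 44045 CPM in lung with a median of 34119 CPM and overlapped with heart. The 3p arm therefore passed against each organ at any fold but missed the 2-fold criterion in heart alone.

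Smooth muscle miRNAs made up the largest share of adult lung counts. miR-143-3p alone accounted for 200872 ± 29489 CPM (SD, n = 8), and the 10 most abundant miRNAs together held 71.1% of the lung counts. In lung, miR-143-3p ran from 158228 to 230338 CPM and was higher than the mean of the organs by 1.59 ± 0.11 on the log2 scale. Heart, at 167135 ± 23442 CPM, differed from lung by 0.07 ± 0.17. Of the next most abundant miRNAs, miR-10a-5p was at 88337 to 146958 CPM in lung with a log2 fold change of 1.02 ± 0.16, far below kidney. miR-26a-5p (0.46 ± 0.12) and miR-22-3p (-0.22 ± 0.12) were within 2-fold of the mean of the organs. Both arms of miR-143 and of miR-145 were higher, 4 of 4, with a median of 1.36, but DESeq2 called 2 of the 4. Of the 4 arms of miR-199a and miR-214, miRNAs of mesenchymal cells, miR-199a-3p (1.52) and miR-199a-5p (1.02) were higher. Among all miRNAs tested 21.4% were higher.

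miR-30a-5p, the second most abundant miRNA in adult lung, was also above all other libraries. It ranged from 109835 to 155030 CPM with a median of 129681 CPM, while the highest library elsewhere was at 84667 CPM. Kidney was the highest other organ (68263 ± 6934 CPM), and after TMM scaling it differed from lung by 0.22 ± 0.14 (edgeR adjusted p = 0.202). Of the 11 arms of the miR-30 family 2 were higher and 2 lower, near the shares of 21.4% and 18% among all miRNAs tested. miR-30e-3p was at 192 to 328 CPM in lung with a median of 284 CPM and a log2 fold change of -1.53 ± 0.15. Among the organs of the main comparison its mean was lowest in lung. Uterus, outside that comparison, was lower still at 170 ± 25.9 CPM (SD, n = 4). Testis was higher, at 824 ± 94.4 CPM (SD, n = 4). Within the main comparison miR-30e-5p also had its lowest mean in lung, at 8137 ± 950 CPM, but its log2 fold change of -0.88 was under 2-fold.

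miR-146b-5p, an NF-kB-responsive miRNA of leukocytes and inflamed epithelium, was at 2257 to 6184 CPM in lung with a median of 4265 CPM. Brain held nearly the same CPM (4006 ± 2188, SD, n = 8) and overlapped with lung. The fitted log2 difference over brain, 1.10 ± 0.35 (edgeR adjusted p = 0.00323), was larger than the ratio of CPMs because of the brain TMM factors. It no longer passed against each organ on library size alone, by DESeq2, without replicate 1 or replicate 3 of every organ, or without the lung library of male replicate 1. miR-146a-5p, with the same seed, was at 974 to 2979 CPM in lung and overlapped with the other organs (0.63 ± 0.23). miR-497-3p passed against each organ at a very low level, 2.86 to 5.27 CPM in lung, with 4 organs at the floor, and it too overlapped with brain. The related miR-322-5p and miR-195-5p were higher in lung by 2.70 ± 0.15 and 1.26 ± 0.11. Of 12 arms in the miR-15, miR-16, miR-195 and miR-497 family 5 were higher and none lower. Among all miRNAs tested 21.4% were higher and 18% lower.

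Of 12 leukocyte arms 3 were higher, near the share of 21.4% among all miRNAs tested: miR-223-3p of myeloid cells and both arms of miR-146b. miR-223-3p was at 132 to 315 CPM in lung with a median of 226 CPM and a log2 fold change of 1.54 ± 0.13, and spleen was higher at 670 ± 174 CPM. miR-142-5p (0.71), miR-150-5p (-0.42) and miR-155-5p (-0.12) did not pass. Of 5 red cell arms 4 were higher, with a median of 1.59: both arms of miR-144 and of miR-451. miR-451-3p averaged 1.42 CPM in lung with 6 organs at the floor, and its log2 fold change of 2.07 became -0.13 with those set to the floor. miR-451-5p was at 645 to 1183 CPM in lung and 7908 ± 4449 CPM in spleen, and against the arithmetic mean of organs lung was lower (log2 ratio -0.58).

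**Figure D2:**
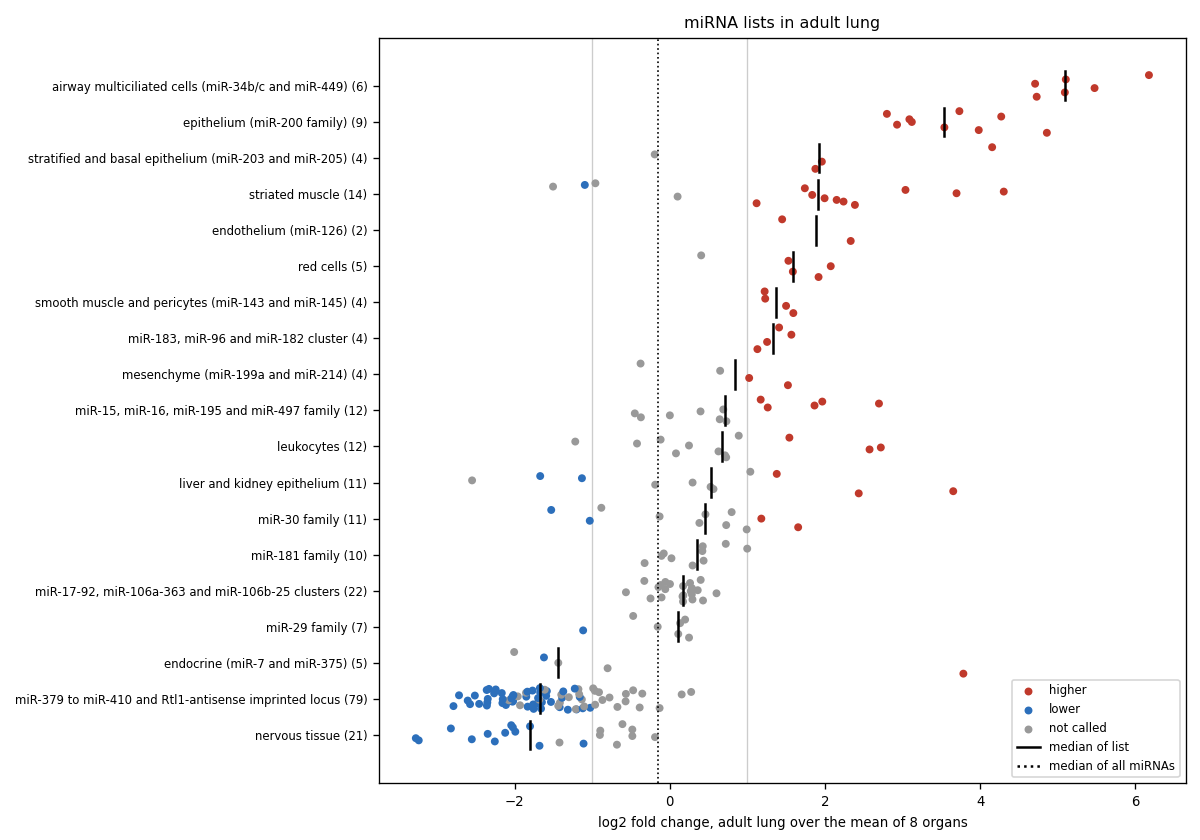
Log2 fold change of adult lung over the mean of 8 organs (x axis) for each measured arm in 19 lists of miRNAs, with the number of arms in brackets. Red points were higher, blue points lower and grey points not called, short bars are list medians, and the dotted line is the median of all miRNAs tested (-0.15). The miR-34b/c and miR-449 list (median 5.10) and the miR-200 list (3.54) lie farthest to the right, and the nervous tissue (-1.80) and imprinted locus (-1.67) lists farthest to the left.

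Other broadly expressed families showed few or no calls. None of the 10 miR-181 arms and none of the 22 arms of the miR-17-92, miR-106a-363 and miR-106b-25 clusters, which act in proliferating cells, passed in either direction. Their median log2 fold changes were 0.36 and 0.17, and among all miRNAs tested 21.4% were higher and 18% lower. miR-181a-5p was at 26534 to 34398 CPM in lung and 310819 CPM in thymus, where it tunes T-cell receptor signalling, and miR-92a-3p was at 4095 to 8823 CPM in lung (-0.06 ± 0.12). Of 7 miR-29 arms, known for repressing collagen genes, miR-29b-1-5p was lower (-1.12), near the share of 18% among all miRNAs tested. The level of miR-29a-3p was close to the mean of the organs at 0.25 ± 0.10.

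Among the 88 lower miRNAs of the 10-CPM set, brain was the highest organ for 72 (81.8%). A miRNA scarce in lung enters that set only through the mean of the other organs. A high level in some other organ is therefore partly built in, and the share of the whole set that peaks in brain was not counted. Of 21 nervous tissue arms 13 were lower, against 18% of all miRNAs tested, and none higher, with a median of -1.80. miR-9a-5p, which acts in neurogenesis, was at 35.4 to 60.7 CPM in lung with a median of 40.9 CPM and at 35340 ± 2864 CPM in brain. Its log2 fold change was -2.04 ± 0.26 over the mean, and lung and spleen differed by 0.25 ± 0.29. miR-129-5p was at 0 to 1.14 CPM in lung and at 970 ± 34.6 CPM in brain. miR-124-3p, which represses non-neuronal genes in neurons, was at 3.39 to 10.9 CPM in lung and 12741 CPM in brain (-1.68 ± 0.30), and miR-128-3p was lower by 2.25 on the log2 scale.

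Of 79 arms of the miR-379 to miR-410 and Rtl1-antisense hairpins, the maternally expressed imprinted cluster, 49 were lower in lung, against 18% of all miRNAs tested, and none higher, with a median of -1.67. The summed level of these arms was 823 to 1503 CPM in lung, 181133 CPM in brain and 417 CPM in thymus, so lung ranked in the middle of the organs. miR-127-3p, the most abundant of them in lung, was at 575 to 1057 CPM with a log2 fold change of -1.31 ± 0.21. It was far higher in adrenal gland and brain, and in 27 of the 79 arms lung was at the floor.

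Among the lower miRNAs of the 10-CPM set, miR-196a-5p, which is encoded within the Hox clusters, had the lowest log2 fold change. It was at 0 to 1.502 CPM in lung and 359 ± 41.4 CPM in muscle. Its log2 fold change was -3.36 ± 0.52 as fitted and -4.16 with 3 organs set to the floor. miR-196b-5p, with the same seed, was at 0.308 to 4.44 CPM in lung and 579 ± 69.4 CPM in kidney (-3.24 ± 0.32). The other 8 of the 10 lowest in this set, miR-129-5p, miR-129-1-3p, miR-219a-2-3p, miR-323-3p, miR-6331, miR-485-5p, miR-380-3p and miR-369-3p, had log2 fold changes of -3.27 to -2.57 and their highest mean in brain. miR-1839-5p and miR-30e-3p were the 2 miRNAs that were under each of the 8 organs with an adjusted p under 0.05. None was 2-fold under each by edgeR, also at an unadjusted p under 0.05, whereas DESeq2 gave miR-30e-3p and miR-6215.

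A log average gives each organ equal weight, so an organ with a very high level counts little, and adult lung was often higher than that average without being the main source. Among the 91 higher miRNAs of the 10-CPM set, lung was the highest organ for 27 (29.7%) and brain for 22 (24.2%). In 28 of the 91, lung was below the arithmetic mean of the 8 organ CPMs. Over all 132 higher miRNAs this held for 41, and 60 had at least 1 organ at the floor. With organs at the floor set to 3 counts, 92 miRNAs were higher and 112 lower at the adjusted p of the main fit.

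miR-1298 is an example. Lung held 24.4 to 48.3 CPM with a median of 34.3 CPM, brain held 580 ± 99.2 CPM, and 5 organs were at the floor. The log2 fold change was 5.31 ± 0.20 as fitted and 3.68 with those organs at the floor, while the arithmetic log2 ratio was -1.06. miR-92b-3p was at 1669 to 2446 CPM in lung, with 9278 ± 1025 CPM in brain and a log2 fold change of 4.28 ± 0.14, and stayed above the arithmetic mean (0.68).

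**Figure D3:**
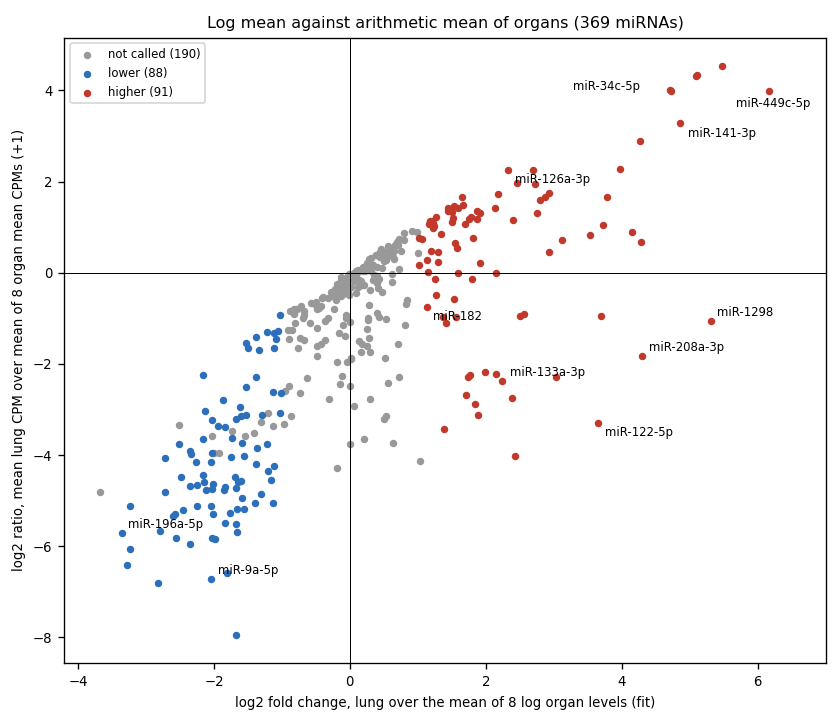
Log2 fold change of adult lung over the mean of 8 log organ levels (x axis, edgeR) against the log2 ratio of lung CPM to the arithmetic mean of the organ CPMs (y axis, 1 CPM added to each), for 369 miRNAs at 10 CPM or more. The 91 higher miRNAs are red, the 88 lower blue and the others grey. The red points below the horizontal line, miR-1298, miR-208a-3p and miR-122-5p among them, reverse with the way organs are averaged.

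Striated muscle and liver miRNAs were found in adult lung at levels that differed between libraries. Of 14 striated muscle arms 10 were higher and 1 lower, against 21.4% and 18% of all miRNAs tested, with a median of 1.91. Among the higher arms, miR-1-5p and miR-208a-5p each had 6 organs at the floor. Their log2 fold changes of 1.12 and 3.04 became -1.18 and -0.06 with those set to the floor. Without male replicate 3, 8 were higher and 2 lower. miR-133a-3p had a log2 fold change of 2.24 ± 0.30 with and 1.70 ± 0.31 without that library, and miR-208b-3p was no longer called (0.42). miR-208a-3p, which lies in a cardiac myosin gene, was at 7.30 to 48.3 CPM in lung with a median of 18.6 CPM, and at 639 ± 96.4 CPM in heart. The highest of its lung values was in male replicate 2. Levels in heart or muscle were far above these, and the arithmetic ratio of miR-133a-3p was -2.37.

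The liver miRNAs turned on 1 library. Over the 8 libraries miR-122-5p was higher in lung by 3.65 ± 0.51, and without male replicate 3 it was lower by 2.98 on the log2 scale. The 2 arms of miR-802 and miR-122-3p reversed as well, to -3.98 for miR-802-5p, -3.003 for miR-802-3p and -2.64 for miR-122-3p, at levels of about 1 count per library. Of 11 liver and kidney arms 3 were higher and 2 lower with all libraries, near the shares of 21.4% and 18% among all miRNAs tested, and none higher and 7 lower without male replicate 3. Male replicate 3 also held 26475 CPM of miR-192-5p against 1385 to 2072 CPM in the others and 707 CPM of miR-194-5p against 63.7 to 89.1 CPM. In all, 19 calls changed when it was left out, giving 128 higher and 115 lower.

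The next question was which organ each miRNA's lung level resembled most. Over the 369 miRNAs of the 10-CPM set, the organ with the smallest log2 difference from lung was heart for 70, spleen for 61, kidney for 59, liver for 47, thymus for 44, adrenal gland for 36, brain for 32 and muscle for 20. For 301 of the 369 the difference from the closest organ had an adjusted p of at least 0.05, and in 32 it was 2-fold or more with an adjusted p under 0.05. Lung was the higher side in 28 of these 32. Thymus was the closest organ for 10 of the 28 and brain for 7, among them all the miR-34b/c and miR-449 arms. In the remaining 4, miR-1298, miR-205, miR-92b-3p and miR-542-5p, lung was the lower side.

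Over the whole profile of measured miRNAs, Pearson's r of mean log2 levels between lung and the organ was 0.932 for kidney, 0.928 for heart, 0.924 for spleen, 0.917 for thymus, 0.899 for liver, 0.878 for muscle, 0.817 for adrenal gland and 0.718 for brain. These values share the 8 lung libraries and differ in depth. Against heart 108 miRNAs were higher (17.5%) and 99 lower (16.1%), and against kidney 120 (19.5%) and 102 (16.6%). The percentages of higher and lower miRNAs were 25.6% and 16.6% for liver, 23.2% and 22.4% for spleen and 29.2% and 23.1% for thymus. They were 24.7% and 30.4% for adrenal gland, 29.5% and 27.6% for muscle, and 32.3% and 41.2% for brain (199 higher, 254 lower). For the abundant miRNAs the nearest organs were heart for miR-143-3p (0.07 ± 0.17), muscle for miR-26a-5p (0.08 ± 0.17), spleen for miR-181a-5p (0.10 ± 0.20), liver for miR-27b-3p (0.06 ± 0.16) and kidney for miR-151-3p (0.22 ± 0.14). The closest organ of a single miRNA was a loose label. With library size as the only scaling, 160 of 369 miRNAs kept the same closest organ.

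**Figure D4:**
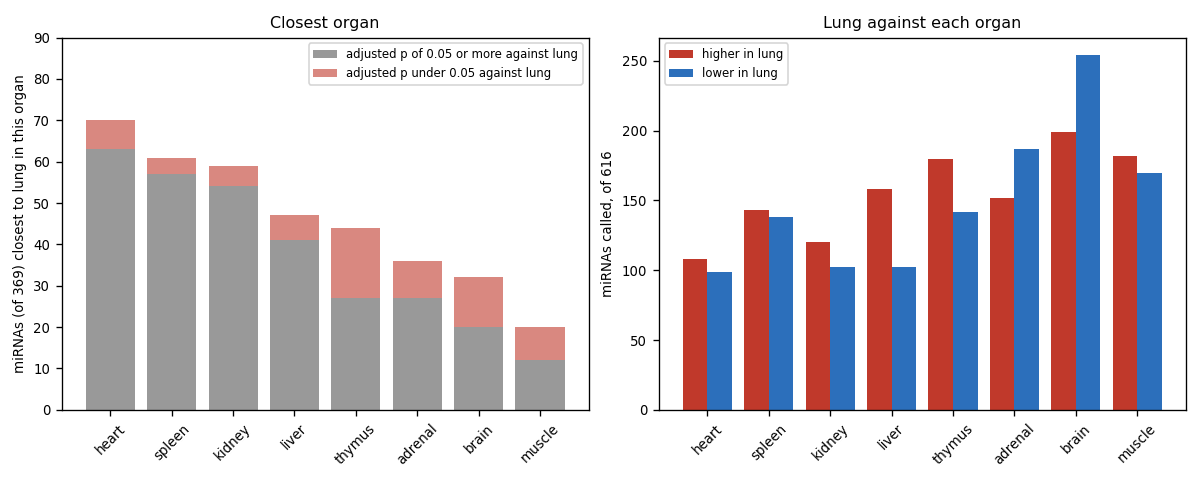
Left, number of miRNAs (of 369 at 10 CPM or more) whose adult lung level was closest to each organ, split by whether the difference from that organ had an edgeR adjusted p of 0.05 or more. That organ was picked for the smallest difference, so a high p is largely built in. Right, number of all miRNAs tested that were at least 2-fold higher or lower in lung than in each organ. Heart was closest most often (70 miRNAs), and brain differed from lung in the most miRNAs (199 higher, 254 lower).

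The reproductive organs changed the set of lung miRNAs. When testis and uterus (4 libraries each) were added to the organs compared, no miRNA was 4-fold over each organ and 2 were 2-fold over each, miR-141-3p and miR-200c-3p. Testis held 131752 ± 9678 CPM of miR-34c-5p and 22768 ± 3503 CPM of miR-449a-5p (SD, n = 4), against 4182 ± 742 and 250 ± 49.3 CPM in lung (n = 8). In uterus the same miRNAs were at 211 ± 37.0 and 5.39 ± 1.79 CPM. The miR-34b/c and miR-449 miRNAs thus set adult lung apart from the 8 shared organs and from uterus, but all 6 were higher in testis.

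The same comparison was made in rats of other ages. All 11 miRNAs that were over each organ in adult lung were also higher than the mean of the organs at 2, 6 and 104 weeks. At 2 weeks 103 miRNAs were higher (16.7%) and 167 lower (27.1%), and 97 of the higher ones were also higher in the adult (94.2% of the 103 and 73.5% of the 132). At 6 weeks 119 were higher (19.3%), 112 of them also in the adult. At 104 weeks 93 were higher (15.1%), 88 of them also in the adult. A smaller share of the lower miRNAs was also lower in the adult: 86 of 167 at 2 weeks (51.5%), 90 of 138 at 6 weeks (65.2%) and 85 of 115 at 104 weeks (73.9%). Calls opposite to the adult numbered 3 at 2 weeks, 0 at 6 weeks and 3 at 104 weeks.

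The miR-449 level in lung was higher in young rats. miR-449a-5p averaged 1438 ± 226 CPM at 2 weeks, 1135 ± 189 CPM at 6 weeks, 250 ± 49.3 CPM at 21 weeks and 186 ± 73.1 CPM at 104 weeks (SD, n = 8 each). All libraries of 2 and 6 weeks lay above all those of 21 and 104 weeks. Differences between ages come from 1 fit over all 4 ages with its own TMM factors, so they need not equal the difference between values fitted at each age. Relative to the other organs of the same age, its lung excess at 21 weeks was lower by 1.20 on the log2 scale than at 2 weeks and by 1.44 than at 6 weeks (edgeR adjusted p = 0.0135 and 0.0174). miR-449c-5p averaged 246, 172, 32.8 and 28.9 CPM at the 4 ages, and its differences of -0.88 and -1.56 did not pass (edgeR adjusted p = 0.447 and 0.229). At the miR-34 hairpins the mean lung CPM was lowest at 2 weeks. miR-34c-3p averaged 42.5 CPM at 2 weeks and 114 CPM at 21 weeks, a difference in lung excess of 1.23 (edgeR adjusted p = 0.00643). For miR-34c-5p the difference was 0.57 ± 0.35 and did not pass.

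The lung contrast at 21 weeks differed from that at 2 weeks for 56 miRNAs (9.09%), from that at 6 weeks for 8 (1.3%) and from that at 104 weeks for 14 (2.27%). At 2 weeks the excess of the miR-183 cluster was larger, with differences of -2.00 for miR-182, -1.44 for miR-183-5p and -1.77 for miR-96-5p, although the mean lung CPM of miR-182 was 6001 at 2 weeks and 4133 at 21 weeks. The lung excess of miR-195-5p was lower at 21 than at 2 weeks, with a difference of -1.11 ± 0.16 in the fit over all ages. In contrast miR-143-3p, miR-30a-5p and miR-126a-3p did not differ at the threshold between 21 weeks and any other age. miR-196b-5p averaged 2.72 CPM in lung at 21 weeks and 9.22 CPM at 104 weeks, and its contrast differed by -2.18 ± 0.36. Without male replicate 3 the 3 counts were 45, 8 and 7.

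**Figure D5:**
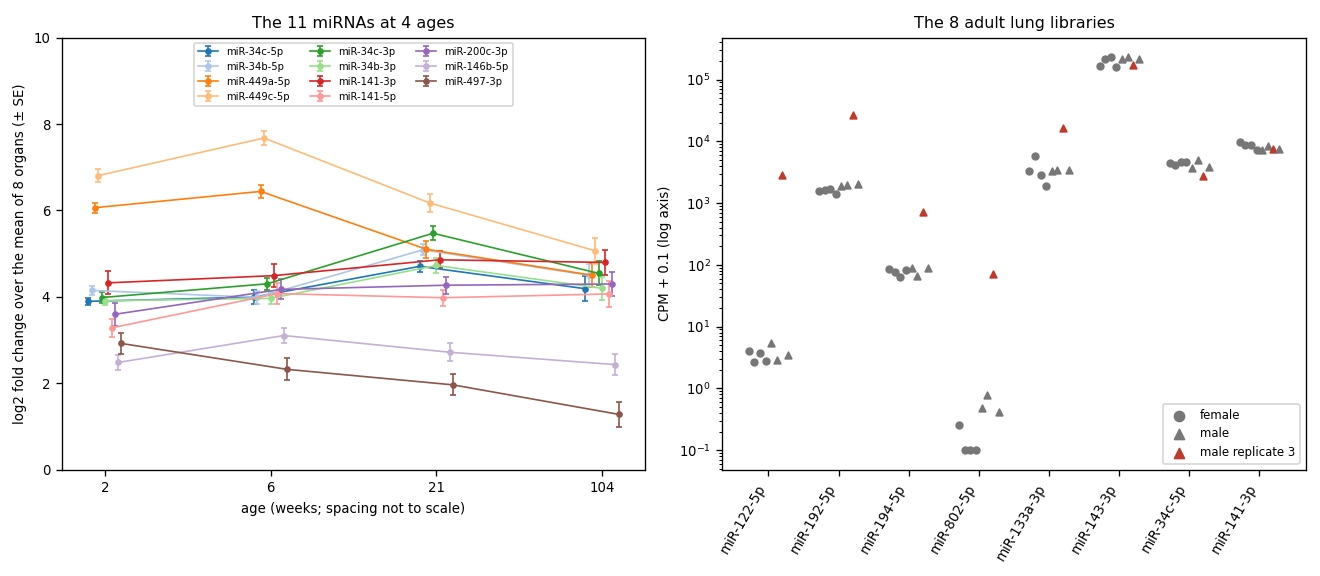
Left, log2 fold change of lung over the mean of 8 organs (± SE) at 4 ages for the 11 miRNAs that were over each organ in the adult, with ages evenly spaced. Right, CPM (plus 0.1, log axis) of 8 miRNAs in each adult lung library, with females as circles, males as triangles and male replicate 3 in red. All 11 stay above 1 at every age, and male replicate 3 is far above the others in miR-122-5p, miR-192-5p, miR-194-5p and miR-802-5p but not in miR-34c-5p or miR-141-3p.

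Female and male adult lung were also compared. No miRNA passed between the 4 males and 4 females (edgeR, smallest adjusted p = 0.598), with 31 at an unadjusted p under 0.05, and DESeq2 also gave 0 with 16 at an unadjusted p under 0.05. With the replicate number as a block, 3 passed. The lung contrast itself differed between the sexes for 4 miRNAs (0.649%), miR-122-5p, miR-802-5p, miR-802-3p and miR-192-5p, and for 0 without male replicate 3. miR-143-3p was at 193177 ± 35899 CPM in females and 208566 ± 24134 CPM in males (SD, n = 4 each), a log2 difference of 0.04 ± 0.22.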

How the data were processed

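Total RNA was extracted from ground organ tissue, and small RNA libraries (Illumina TruSeq) were sequenced as single-end reads. The authors trimmed reads with fastp 0.23.2, aligned them with Bowtie 1.3.1 to miRBase and deposited raw counts per mature miRNA. miRNAs with under 1 count per library on average were left out by the authors. No spike-in was used, so levels are relative within a library. Replicates of an organ are separate rats per the study, and each rat gave all the organs compared, so organs share rats. The labels tie no library to a rat, and the fit treated libraries as independent.

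Counts of 72 libraries at week 21 were fitted with edgeR 4.0.16 (R 4.3.3, limma 3.58.1), TMM factors and Benjamini-Hochberg adjustment over 616 rows. The contrast was lung minus the mean of 8 organ coefficients. A call needed an adjusted p under 0.05 and a change of 2-fold. Floors were 3 counts per library and cover counting error only. DESeq2 1.42.0 was an alternative. On simulated counts, all 200 changed miRNAs of the lung comparison were recovered with 0% of 416 unchanged ones called. The simulation gave all organs 1 mean profile and a dispersion of 0.1. It changed only miRNAs of at least 10 CPM, in lung alone, by 1.5 or 3 on the log2 scale. It held no differences among the other organs and no outlying library, so it checks the code and not the error rate of the real calls. miRNAs were named by size of change, abundance, list membership, closest organ and age difference. Same-numbered libraries deviated together weakly at most (mean r of -0.011 to 0.041), and numbers were not used as pairs. Such values do not exclude that a number marks 1 rat. The 2 libraries that the study removed, at weeks 6 and 104, were left out. The members and lists were chosen with earlier results of these data known.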

Additional observations from a re-analysis of the deposited data

Results flagged for a closer look

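In the 8 adult lung libraries, 19 of 88 tested values had 1 library farther from the rest than Dixon's 95% limit. The values were the named miRNAs and the total count. Some liver miRNAs were named only for age or sex differences that included male replicate 3. Arms of 1 hairpin also vary together, so the nominal rate of 1 in 20 is no benchmark for this count. Male replicate 3 accounted for 9: miR-122-5p (2885 CPM), miR-122-3p (73.6 CPM), miR-192-5p (26475 CPM), miR-194-5p (707 CPM), miR-802-5p (71.1 CPM), miR-802-3p (51.7 CPM), miR-133a-3p (16301 CPM), miR-1b (798 CPM) and miR-133b-3p (402 CPM). Female replicate 3 was highest in miR-10a-5p (146958 CPM), miR-196a-5p (1.502 CPM), miR-9a-5p (60.7 CPM) and miR-124-3p (10.9 CPM). Female replicate 4 was highest in miR-200b-3p (4472 CPM), miR-96-5p (224 CPM), miR-145-3p (2406 CPM) and miR-29a-3p (6860 CPM). Male replicate 2 was highest in the red cell miRNAs miR-451-5p (1183 CPM) and miR-144-3p (255 CPM).

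The lung contrast differed between 21 and 2 weeks, by the edgeR test of the difference itself, for 19 of the named miRNAs. It was higher at 21 weeks for miR-34c-3p (1.23) and miR-1298 (2.18). It was lower at 21 weeks for miR-449a-5p (-1.20), miR-195-5p (-1.11), miR-182 (-2.00), miR-183-5p (-1.44), miR-96-5p (-1.77) and the red cell miRNA miR-486 (-1.02). It was also lower for the brain miRNAs miR-219a-2-3p (-2.92), miR-6331 (-1.66), miR-485-5p (-1.45), miR-369-3p (-1.22) and miR-9a-5p (-1.22). The liver miRNAs miR-122-5p (4.97), miR-122-3p (4.03), miR-802-3p (4.93), miR-802-5p (4.05), miR-192-5p (2.13) and miR-194-5p (1.86) differed as well.

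Between 21 and 6 weeks the contrast differed for miR-1298 (1.77), miR-449a-5p (-1.44), miR-369-3p (-1.004), miR-192-5p (1.80), miR-802-5p (2.16) and miR-194-5p (1.55). Between 21 and 104 weeks it differed for miR-196b-5p (-2.18), miR-369-3p (-1.03), miR-122-5p (6.84), miR-802-3p (5.85), miR-802-5p (5.02) and miR-122-3p (5.63). Between males and females it differed for miR-192-5p (2.23), miR-122-5p (8.16), miR-802-5p (7.71) and miR-802-3p (5.35). In other lung libraries miR-122-5p reached 110 CPM at 2 weeks, 324 CPM at 6 weeks and 4.98 CPM at 104 weeks. The contrasts of the liver miRNAs include male replicate 3, and the 4 sex differences were lost without it. Without it the differences from 2 weeks were -1.71 for miR-122-5p, -1.06 for miR-122-3p, 0.54 for miR-802-3p, -0.98 for miR-802-5p, 0.66 for miR-192-5p and 0.85 for miR-194-5p, and none passed. Those from 6 weeks passed as lower at 21 weeks for miR-122-5p (-4.65), miR-122-3p (-3.59) and miR-802-5p (-2.87), and did not pass for miR-192-5p (0.32), miR-194-5p (0.54) and miR-802-3p (-2.00). Those from 104 weeks were 0.15 for miR-122-5p, 0.54 for miR-122-3p, 1.47 for miR-802-3p and -0.01 for miR-802-5p, and did not pass, while that of miR-192-5p passed (-1.37).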

How the results depend on the processing

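The numbers of miRNAs higher and lower in adult lung stayed within 1.5 times of 132 and 111 under library size scaling, a mean count of at least 10, a sex or lane covariate and each left-out library or organ. With organs at or under 3 counts set to 3 counts, 92 were higher and 112 lower, so the higher calls no longer outnumbered the lower. Leaving out replicates gave 122 to 137 higher, 93 to 116 lower, 6 at 4-fold over each organ, 7 to 12 at 2-fold over each and 0 to 1 at 2-fold under each. The low value of 7 came without replicate 3 of every organ. DESeq2 gave 208 lower, 7 over each and 2 under each at 2-fold. A 4-fold threshold gave 54 higher and 43 lower, and no fold threshold 199 higher. Against the arithmetic mean of organ CPMs, 48 were at least 2-fold higher and 241 at least 2-fold lower. Those 2 counts had no test and no TMM scaling, so they are not calls like the others. With testis and uterus compared, 0 miRNAs at 4-fold and 2 at 2-fold were over each organ. The closest organ was the same for 160 of 369 miRNAs on library size alone, for 153 by mean log2(CPM + 1) and for 246 to 347 with replicates left out.

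Replicate numbers were not used to pair the libraries. With the number as a replicate block, 131 miRNAs were higher and 109 lower, 6 and 11 were over each organ, 3 differed between the sexes within lung and 2 in the lung contrast. Age differences from 2, 6 and 104 weeks were 35 to 48, 2 to 9 and 5 to 12 with replicates left out. The low counts came without replicate 3 for weeks 2 and 104 and without replicate 2 for week 6. With the 2 libraries the study removed, the week 6 count was 5. Without male replicate 3, an alternative chosen after seeing the data, the week 104 count was 7. With replicates left out, the sex difference of the contrast was called for 0 to 5 miRNAs, with 0 without replicate 3 or male replicate 3 and 2 without replicate 4, and DESeq2 called 6.

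With replicates or single lung libraries left out, log2 fold changes ranged from -2.98 to 4.20 for miR-122-5p, from -3.53 to 1.87 for miR-802-3p, from -3.98 to 1.53 for miR-802-5p and from -2.64 to 3.06 for miR-122-3p. The negative values were those without replicate 3 or male replicate 3 alone. With a lane covariate miR-802-3p was at -0.0039. Against the arithmetic mean of organs, reversed values were -1.06 for miR-1298, -1.82 for miR-208a-3p, -0.74 for miR-182, -0.96 for miR-183-5p, -1.09 for miR-96-5p, -0.58 for miR-451-5p, -2.37 for miR-133a-3p, -2.88 for miR-1b, -2.18 for miR-133b-3p, -3.28 for miR-122-5p, -3.42 for miR-802-3p and -4.01 for miR-122-3p. Depth limits the scarce miRNAs: 17 of the 111 lower ones had lung at the floor of 3 counts.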

Other observations

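miR-99b-5p and miR-100-5p varied with the sequencing lane across the 72 libraries. The lane accounted for 0.5 of the variance of each around its organ mean, against a median of 0.152 over miRNAs and 0.111 expected from the degrees of freedom. In adult lung miR-99b-5p ranged from 6640 to 38270 CPM, and its log2 fold change over the mean of the organs was 0.72 ± 0.26. With lane as a covariate it was 0.56.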
